A study of Mus musculus with 9 samples.

Results

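Kruppel-like factors are transcription factors with C-terminal zinc fingers that bind GC-rich and CACCC-box DNA. In blood and immune cells they are known for holding cells quiescent, for setting lymphocyte trafficking and for myeloid differentiation, and several of them are transcribed quickly after stimulation. They fall into activators (KLF2, KLF4, KLF6 and KLF7 among them), factors that recruit the corepressor CtBP (KLF3) and factors that bind the corepressor Sin3A (KLF9, KLF10 and KLF13). The 8 genes that encode these factors, Klf2, Klf3, Klf4, Klf6, Klf7, Klf9, Klf10 and Klf13, were matched by symbol among the 57126 genes of the count table. All 8 were found and all 8 were among the 17555 genes with enough counts to be tested.

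RNA was sequenced from mouse plasmacytoid dendritic cells (pDCs), the dendritic cells that specialise in type I interferon, after sorting by flow cytometry. The 3 groups were pDCs given oxidized mitochondrial DNA (Ox-mtDNA), pDCs given mitochondrial DNA that was not oxidized (mtDNA) and pDCs given the vehicle phosphate-buffered saline (PBS), with 3 libraries in each. The labels give no strain, age, dose or duration, and they are silent on whether replicates came from different cultures or animals. The p-values therefore describe how these libraries vary. The comparisons asked how pDCs respond to each DNA and whether oxidation makes a difference.

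Total counts per library ranged from 16029951 to 25378884. The 12 pDC markers summed to between 4911 and 11177 CPM (counts scaled by library) in Ox-mtDNA, 7190 and 10909 CPM in mtDNA and 8865 and 12843 CPM in PBS, and Siglech, a surface receptor of mouse pDCs, was at 1194 CPM or more in every library. Replicate 3 was separated from replicates 1 and 2 in all 3 groups on the first principal component, which held 72.3% of the variance. Replicate 3 of Ox-mtDNA, mtDNA and PBS held 2087, 1928 and 818 CPM of Xist, which silences an X chromosome in female cells, and the other 6 libraries held 0 to 0.846 CPM. By Xist, the sex of the cells thus differed between replicate 3 and the rest. It cannot be told apart from other differences of replicate 3. Replicates 1 and 2 of Ox-mtDNA were also less alike (r = 0.923 across genes in log2 CPM, where genes are not independent replicates) than those of mtDNA (r = 0.991) or PBS (r = 0.990). Fold changes without single libraries or without replicate 3 are therefore given beside the results they move.

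Klf6 and Klf9 were the members with the highest values after Ox-mtDNA relative to PBS for their spread. Klf6 averaged 507 ± 212 CPM in Ox-mtDNA and 114 ± 20.4 CPM in PBS (SD, n = 3 each). Klf9 averaged 6.38 ± 4.09 CPM in Ox-mtDNA and 1.61 ± 0.956 CPM in PBS (SD, n = 3 each). Klf2, Klf3 and Klf10 differed so much between the Ox-mtDNA libraries themselves that 1 library set the direction of their fold change over PBS. Klf4 was higher in Ox-mtDNA than in PBS within each replicate number, mostly in replicate 1. No member passed the edgeR quasi-likelihood test after Benjamini-Hochberg adjustment over all 17555 genes in any comparison, and no other gene did (0%, 0% and 0% of genes called for Ox-mtDNA against PBS, mtDNA against PBS and Ox-mtDNA against mtDNA).

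The promoters of the 4 members with the highest log2 fold changes after Ox-mtDNA are shown because known stimulus-response motifs differ between them. Each is the 250 bases before the annotated start site, from the RefSeq promoter table for GRCm38.p6, a build older than the GRCm39 of the counts. They lie at chr8:72318812-72319061 (+ strand) for Klf2, chr4:55532476-55532725 (- strand) for Klf4, chr13:5861239-5861488 (+ strand) for Klf6 and chr19:23140976-23141225 (+ strand) for Klf9. Capitals mark 4 motifs searched on both strands: TGACG (the core of the cAMP response element), CACGTG (an E-box), TGANTCA (an AP-1 site) and the binding site of MEF2, the factor through which the kinase ERK5 activates KLF2 transcription.
Klf2: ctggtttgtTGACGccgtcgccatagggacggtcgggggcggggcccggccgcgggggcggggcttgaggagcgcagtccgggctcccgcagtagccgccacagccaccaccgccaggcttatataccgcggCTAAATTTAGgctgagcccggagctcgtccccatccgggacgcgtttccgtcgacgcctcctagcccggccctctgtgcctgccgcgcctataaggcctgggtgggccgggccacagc
Klf4: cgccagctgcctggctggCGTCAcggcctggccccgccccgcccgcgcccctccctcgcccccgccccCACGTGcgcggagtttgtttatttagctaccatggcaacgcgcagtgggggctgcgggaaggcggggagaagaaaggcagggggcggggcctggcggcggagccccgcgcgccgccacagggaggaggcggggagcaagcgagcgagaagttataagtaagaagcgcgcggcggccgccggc
Klf6: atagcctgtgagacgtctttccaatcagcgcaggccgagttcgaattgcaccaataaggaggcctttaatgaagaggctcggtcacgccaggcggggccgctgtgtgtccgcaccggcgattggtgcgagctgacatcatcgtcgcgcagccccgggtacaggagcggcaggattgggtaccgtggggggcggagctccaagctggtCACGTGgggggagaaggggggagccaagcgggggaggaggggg
Klf9: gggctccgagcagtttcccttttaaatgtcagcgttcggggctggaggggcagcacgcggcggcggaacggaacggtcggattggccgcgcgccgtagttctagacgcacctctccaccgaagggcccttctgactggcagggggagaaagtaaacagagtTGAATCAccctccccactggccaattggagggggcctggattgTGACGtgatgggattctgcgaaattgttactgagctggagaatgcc
The MEF2 site stood in the Klf2 window alone among the 7 members with an entry in the table, starting 118 bases before the start site, and in 0.508% of the 32851 windows of all genes. TGACG stood in 4 of the 7 (Klf2, Klf4, Klf9 and Klf13) and in 17.8% of all windows, and CACGTG in 2 of the 7 (Klf4 and Klf6) and 6.02% of all windows. TGANTCA stood in the Klf9 window and in 6.75% of all windows. GGGCGG, a GC box of the kind that Sp and Kruppel-like factors bind, stood in 6 of the 7, against 32.7% of all windows, and CACCC in 5 of the 7, against 52.0%. Neither GAANNTTC (a heat shock element core), a CArG box (the site of serum response factor) nor an NF-kB site was in any of the 7 windows, and these stood in 6.69%, 1.47% and 7.25% of all windows. The 7 windows had 59.2% to 78.4% GC, and the windows of all genes were not matched to them for GC content. The part of base composition in these shares was not tested. These motifs can share bases (TGANTCA and CACCC do in Klf9), and a match of letters is not a measured binding site.

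Among the activators, Klf6 encodes a factor induced early in many stimulated cells (GRCm39, chromosome 13, 5911481 to 5920393, + strand). Its replicates 1, 2 and 3, in that order here and below, were at 737, 319 and 465 CPM in Ox-mtDNA, 121, 112 and 450 CPM in mtDNA and 104, 101 and 138 CPM in PBS. Every Ox-mtDNA library lay above every PBS library, whereas in mtDNA replicate 3 alone was in the Ox-mtDNA range. The log2 fold change of Ox-mtDNA over PBS was 2.15 (SE 0.60, 95% interval 0.78 to 3.51), with differences of 2.81, 1.66 and 1.75 between libraries of the same number (edgeR quasi-likelihood, unadjusted p = 0.00651, adjusted p = 0.472). The DESeq2 Wald test put Klf6 past the threshold (adjusted p = 0.0482), among the 1.49% of 17429 genes that it called higher, and over all 19 alternatives the adjusted p lay between 0.0482 and 0.801 while the log2 fold change lay between 1.76 and 2.38. For mtDNA over PBS the log2 fold change of Klf6 was 0.99 (SE 0.58, edgeR quasi-likelihood, adjusted p = 0.99997), and it was -0.041 without mtDNA replicate 3. For Ox-mtDNA over mtDNA it was 1.16 (SE 0.58, edgeR quasi-likelihood, adjusted p = 0.99995), with differences of 2.60, 1.505 and 0.048 in replicates 1, 2 and 3.

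Klf7 (GRCm39, chromosome 1, 64068606 to 64160650, - strand) encodes an activator known for neuronal development. It was at 22.5, 25.5 and 50.8 CPM in Ox-mtDNA, 25.5, 23.9 and 43.4 CPM in mtDNA and 23.6, 19.3 and 20.1 CPM in PBS. The mtDNA libraries lay just above all PBS libraries, with replicate 3 far higher than the others in both DNA groups. The log2 fold changes were 0.65 (SE 0.40) for Ox-mtDNA over PBS, 0.56 (SE 0.39) for mtDNA over PBS and 0.09 (SE 0.39) for Ox-mtDNA over mtDNA, and none passed (edgeR quasi-likelihood, adjusted p = 0.682, 0.99997 and 0.99995). With replicates 1 and 2 only, the first of these was 0.17 and the third -0.033.

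**Figure D1:**
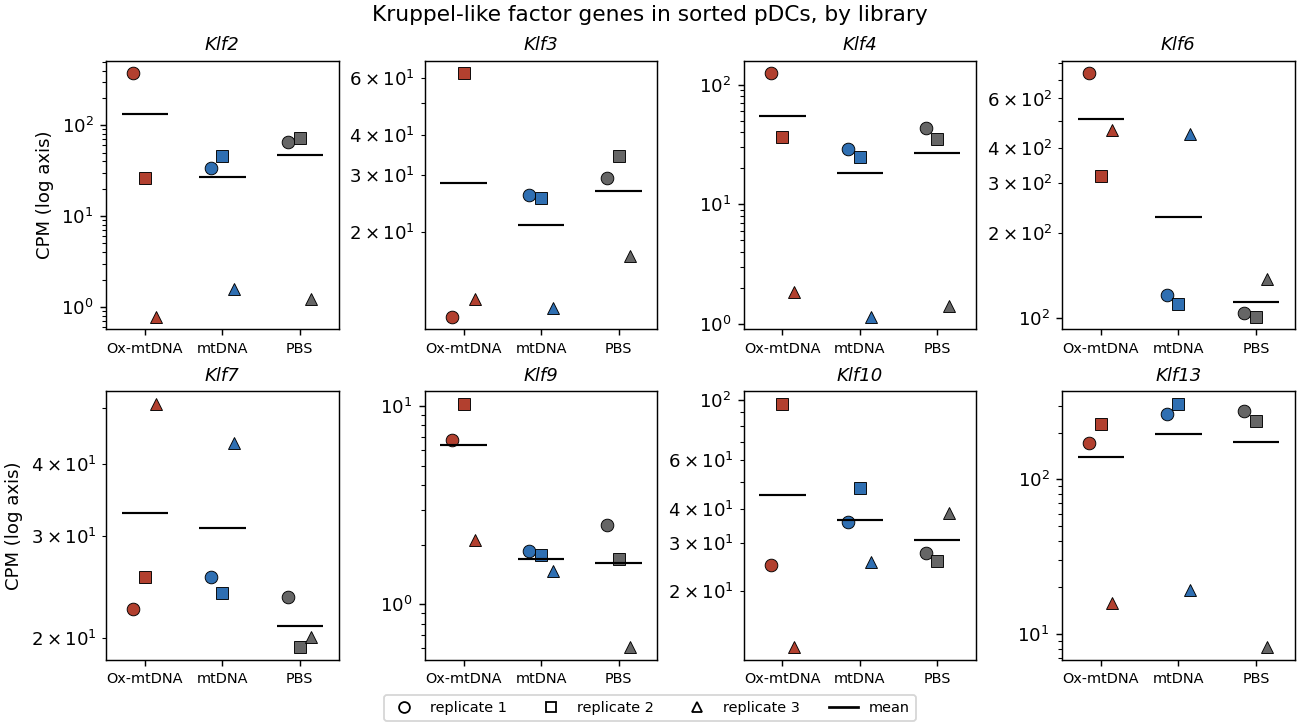
CPM of the 8 genes (log axis, a separate range for each gene) in Ox-mtDNA, mtDNA and PBS pDCs, with a circle, square and triangle for replicates 1, 2 and 3 and a line at the mean of each group. Klf6 in Ox-mtDNA lies at 319 to 737 CPM, above the 101 to 138 CPM of PBS, while Klf2, Klf4 and Klf13 are low in every replicate 3 library.

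Klf2 (GRCm39, chromosome 8, 73072877 to 73075500, + strand) encodes the factor that keeps T cells quiescent and maintains their trafficking receptors. It was at 374, 26.0 and 0.774 CPM in Ox-mtDNA, 33.5, 45.5 and 1.58 CPM in mtDNA and 65.4, 72.8 and 1.21 CPM in PBS. Ox-mtDNA replicate 1 was the highest of all 9 libraries, Ox-mtDNA replicate 2 was below both PBS libraries of replicates 1 and 2, and replicate 3 was low everywhere, with 15 to 32 counts. The log2 fold change of Ox-mtDNA over PBS was 1.52 (SE 1.96, edgeR quasi-likelihood, adjusted p = 0.956) and turned to -1.81 without Ox-mtDNA replicate 1. That of Ox-mtDNA over mtDNA was 2.31 (SE 2.02) and turned to -1.01 without the same library. For mtDNA over PBS it was -0.79 (SE 1.93), with an interval of -5.25 to 3.66 that leaves the direction undetermined.

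Klf4 (GRCm39, chromosome 4, 55527143 to 55532466, - strand), known for monocyte differentiation and for the reprogramming of cells to pluripotency, had a similar pattern. It was at 125, 36.6 and 1.86 CPM in Ox-mtDNA, 28.9, 24.96 and 1.14 CPM in mtDNA and 43.6, 35.5 and 1.40 CPM in PBS. Within each replicate number the Ox-mtDNA library had the highest value of the 3, by 1.51, 0.04 and 0.31 over PBS on the log2 scale. The log2 fold change of Ox-mtDNA over PBS was 1.02 (SE 1.59, edgeR quasi-likelihood, adjusted p = 0.977). It was -0.50 (SE 1.70) without Ox-mtDNA replicate 1, when the low replicate 3 made up 1 of the 2 Ox-mtDNA libraries, 1.04 (SE 0.55) with replicates 1 and 2 only and 0.73 (SE 0.35) under the replicate block (edgeR quasi-likelihood, adjusted p = 0.988, 0.431 and 0.306). Ox-mtDNA over mtDNA gave 1.57 (SE 1.61) and mtDNA over PBS gave -0.55 (SE 1.58).

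Klf3 (GRCm39, chromosome 5, 64960731 to 64990244, + strand) encodes the CtBP-recruiting repressor of the 8. It was at 10.9, 62.0 and 12.4 CPM in Ox-mtDNA, 26.1, 25.5 and 11.7 CPM in mtDNA and 29.4, 34.4 and 16.9 CPM in PBS. Ox-mtDNA replicate 2 was the highest of the 9 libraries and Ox-mtDNA replicate 1 the lowest. The log2 fold change of Ox-mtDNA over PBS was 0.08 (SE 0.70, edgeR quasi-likelihood, adjusted p = 0.9996) and turned to -1.22 without Ox-mtDNA replicate 2. mtDNA over PBS gave -0.35 (SE 0.70), with the mtDNA library below the PBS library in all 3 replicate numbers, by 0.17, 0.42 and 0.51 on the log2 scale. With replicates 1 and 2 only, Ox-mtDNA over PBS gave 0.20 (SE 0.72).

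Among the members that bind Sin3A, Klf9 (GRCm39, chromosome 19, 23118590 to 23145498, + strand) encodes a factor induced by glucocorticoid and thyroid hormones. It was at 6.75, 10.3 and 2.12 CPM in Ox-mtDNA, 1.87, 1.76 and 1.47 CPM in mtDNA and 2.51, 1.70 and 0.607 CPM in PBS, from 16 to 194 counts. All Ox-mtDNA libraries were above all mtDNA libraries, and Ox-mtDNA replicate 3 overlapped with PBS. The log2 fold change of Ox-mtDNA over PBS was 1.99 (SE 0.69, 95% interval 0.40 to 3.58), with differences of 1.27, 2.29 and 1.24 by replicate (edgeR quasi-likelihood, unadjusted p = 0.0202, adjusted p = 0.472). Over mtDNA it was 1.90 (SE 0.69, 95% interval 0.32 to 3.49), with differences of 1.61, 2.25 and 0.41 (edgeR quasi-likelihood, unadjusted p = 0.0243, adjusted p = 0.99995). For mtDNA over PBS it was 0.08 (SE 0.68, 95% interval -1.47 to 1.63).

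Klf10 (GRCm39, chromosome 15, 38291707 to 38300950, - strand) encodes the TGF-beta inducible early factor. It was at 24.98, 96.6 and 12.5 CPM in Ox-mtDNA, 35.8, 47.4 and 25.5 CPM in mtDNA and 27.6, 25.7 and 38.6 CPM in PBS. As for Klf3, Ox-mtDNA replicate 2 was the highest of the 9 libraries, and here Ox-mtDNA replicate 3 was the lowest. The log2 fold change of Ox-mtDNA over PBS was 0.54 (SE 0.68, edgeR quasi-likelihood, adjusted p = 0.949). It turned to -0.72 without Ox-mtDNA replicate 2 and was 1.196 (SE 0.60) with replicates 1 and 2 only. It was 0.24 (SE 0.68) for mtDNA over PBS and 0.30 (SE 0.68) for Ox-mtDNA over mtDNA, which turned to -0.96 without Ox-mtDNA replicate 2.

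Klf13 (GRCm39, chromosome 7, 63536099 to 63588663, - strand) encodes a factor that activates the chemokine gene Ccl5 late in T cell activation. It was at 172, 229 and 15.9 CPM in Ox-mtDNA, 266, 309 and 19.4 CPM in mtDNA and 275, 239 and 8.20 CPM in PBS. Replicate 3 was low in all 3 groups, and Ox-mtDNA was below mtDNA in all 3 replicate numbers, by 0.62, 0.43 and 0.28 on the log2 scale. The log2 fold changes were -0.32 (SE 1.37) for Ox-mtDNA over PBS, 0.19 (SE 1.37) for mtDNA over PBS and -0.51 (SE 1.37) for Ox-mtDNA over mtDNA (edgeR quasi-likelihood, adjusted p = 0.9996, 0.99997 and 0.99995). With replicates 1 and 2 only the values were -0.35, 0.16 and -0.51 with an SE of 0.22 each, and none passed (edgeR quasi-likelihood, adjusted p = 0.503, 0.99998 and 0.363).

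Counted over the 8 genes, 7 had a positive log2 fold change for Ox-mtDNA over PBS, with a median of 0.84, against a median of 0.06 over all tested genes, 53.8% of which were positive. Of these 7, Klf2, Klf3, Klf4 and Klf10 turned negative when 1 library was left out (to -1.81, -1.22, -0.50 and -0.72). At an unadjusted p under 0.05, 2 members were higher (Klf6 and Klf9) and 0 lower, where 5.88% of all tested genes were higher and 3.93% lower. Klf6 was the 1 member whose Ox-mtDNA libraries all lay above PBS, as did those of 7.39% of tested genes. For mtDNA over PBS, 5 members were positive with a median of 0.13 (0.02 over all genes) and 0 had an unadjusted p under 0.05, where 2.02% of genes were higher and 0.598% lower. Of the 5 positive members, all but Klf7 turned negative when 1 library was left out. Klf7 was the 1 member with all mtDNA libraries above PBS, as in 5.58% of genes. For Ox-mtDNA over mtDNA, 7 members were positive with a median of 0.79 (0.04 over all genes), of which Klf2, Klf3, Klf7 and Klf10 turned negative when 1 library was left out. Here 1 member (Klf9) was higher at an unadjusted p under 0.05 and 0 lower, where 0.923% of genes were higher and 1.48% lower, and Klf9 was also the 1 member without overlap, as were 2.04% of genes. Comparisons with PBS share the PBS libraries, and those of Ox-mtDNA share the Ox-mtDNA libraries, so their values are not independent.

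**Figure D2:**
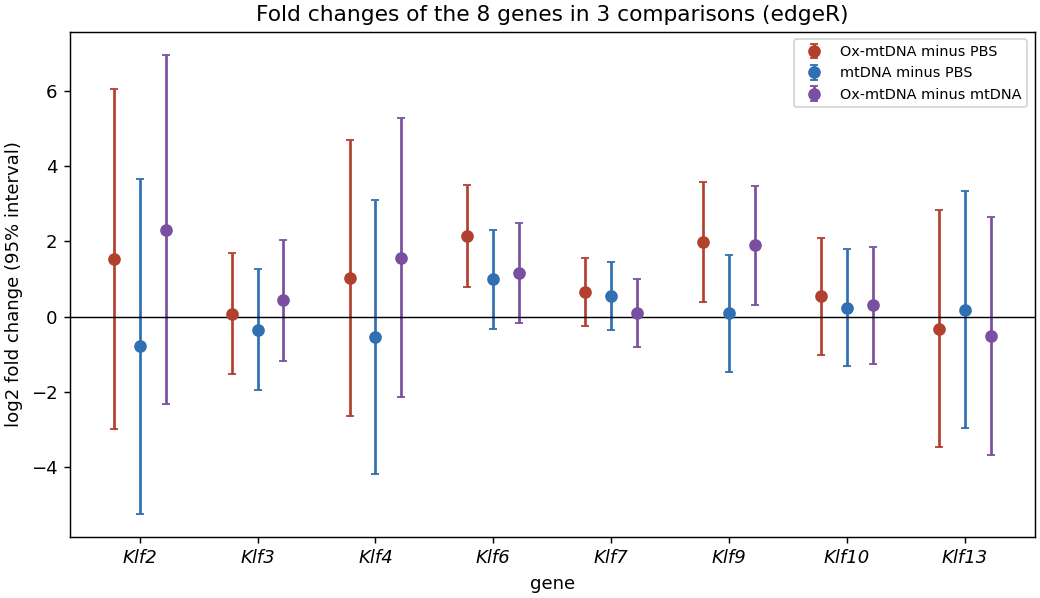
Log2 fold changes of the 8 genes from edgeR, with 95% intervals as bars, for Ox-mtDNA minus PBS (red), mtDNA minus PBS (blue) and Ox-mtDNA minus mtDNA (purple). The intervals stay above 0 for Klf6 (0.78 to 3.51) and Klf9 (0.40 to 3.58) in Ox-mtDNA minus PBS and for Klf9 (0.32 to 3.49) in Ox-mtDNA minus mtDNA, before adjustment over all genes.

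The spread between Ox-mtDNA replicates 1 and 2 was wide for this family. In Ox-mtDNA, 5 of the 8 members differed by more than 2-fold between these libraries, as did 27.7% of all tested genes. In mtDNA and in PBS 0 of the 8 did, against 1.67% and 2.32% of all tested genes. Replicate 1 was higher for Klf2 (14.4-fold), Klf4 (3.42-fold) and Klf6 (2.31-fold). Replicate 2 was higher for Klf3 (5.67-fold), Klf10 (3.87-fold), Klf9 (1.52-fold), Klf13 (1.33-fold) and Klf7 (1.13-fold), the last 3 of these by less than 2-fold. The sum of pDC markers was 11177 CPM in Ox-mtDNA replicate 1 and 4911 CPM in replicate 2. The sum of 4 B cell markers, Cd79a among them, was 186 CPM in Ox-mtDNA replicate 1 and 469.9 CPM in replicate 2, and 86.3 to 469.9 CPM over all Ox-mtDNA, 119 to 145 CPM over mtDNA and 219 to 271 CPM over PBS libraries. The sum of 6 monocyte and macrophage markers was 700.2 CPM in Ox-mtDNA replicate 1 and 451 CPM in replicate 2, and ranged from 451 to 833 CPM in Ox-mtDNA, 622 to 886 CPM in mtDNA and 817 to 1772 CPM in PBS. Conventional dendritic cell markers summed to 299.5 to 769.6 CPM in Ox-mtDNA, 415 to 664 CPM in mtDNA and 379 to 641 CPM in PBS, and the endothelial list, where KLF2 is well known, to 185 to 393, 355 to 734 and 510.3 to 620.3 CPM. T cell, NK cell, neutrophil and erythroid markers summed to at most 40.8, 7.58, 11.01 and 1.06 CPM in any library. The genes of a list were uneven. Endothelial Tie1 and Tek reached at most 0.114 and 1.06 CPM, while Cdh5, Kdr and Pecam1 were at 22.9 to 77.6, 29.3 to 399 and 112 to 380 CPM. Monocyte Fcgr1 and Cd14 reached at most 2.26 and 12.5 CPM, while Csf1r and Ccr2 were at 104 to 273 and 168 to 1486 CPM. Conventional dendritic cell Xcr1 reached at most 4.49 CPM, while Itgax was at 248 to 667 CPM. The part of other cell types in these differences was not tested, and in bulk RNA fewer cells of a type and less RNA per cell cannot be told apart.

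**Figure D3:**
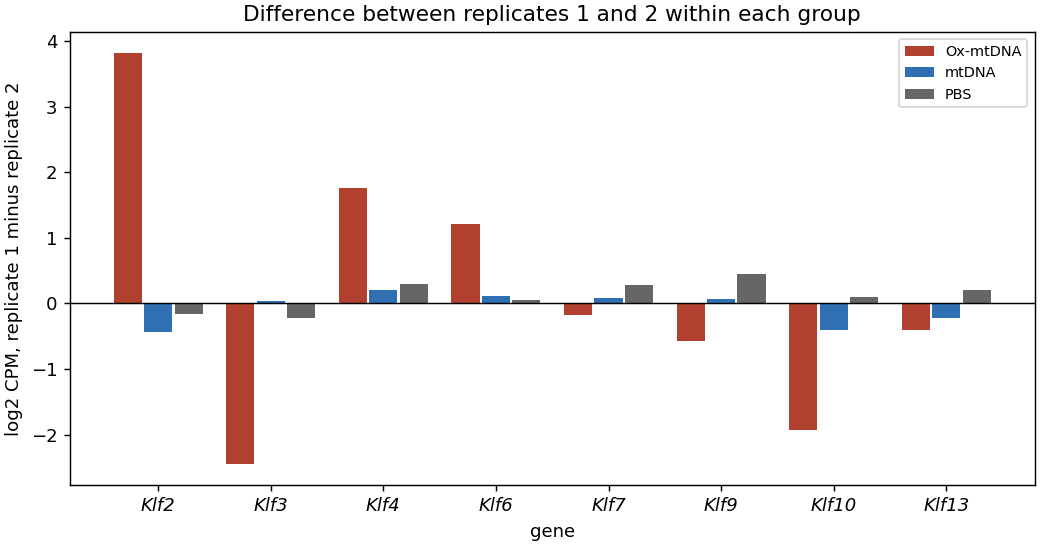
Difference in log2 CPM between replicates 1 and 2 (replicate 1 minus replicate 2) of each gene within Ox-mtDNA, mtDNA and PBS. The Ox-mtDNA bars reach 3.82 above 0 for Klf2, against at most 0.44 in size over the 8 genes in mtDNA and 0.45 in PBS.

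Klf2, Klf4 and Klf13 shared a further feature, a low level in replicate 3 of every group. Their replicate 3 libraries differed from the mean of replicates 1 and 2 by -6.29, -4.25 and -5.34 (log2 CPM) for Klf2 in Ox-mtDNA, mtDNA and PBS. For Klf4 the differences were -4.86, -4.06 and -4.39, and for Klf13 -3.60, -3.85 and -4.88. The other 5 members lay between -1.94 and 1.95. By the longest annotated transcript (GENCODE M21, which covers 95.4% of tested genes), Klf2 has 61.6% GC, Klf13 55.5% and Klf4 54.6%, and the other 5 have 42.4% to 47.5%. All tested genes above 60% GC had median differences of -1.95, -1.95 and -2.08 in Ox-mtDNA, mtDNA and PBS, those of 55% to 60% GC -1.05, -1.16 and -1.34, and those of 50% to 55% GC, where Klf4 lies, -0.045, -0.14 and -0.10. Klf4 was thus far below the median of its own range. Whether GC content sets the low values was not tested. With replicates 1 and 2 only, the log2 fold change of Ox-mtDNA over PBS was 1.54 for Klf2, 1.04 for Klf4, 2.37 for Klf6 and 2.02 for Klf9, and none passed (edgeR quasi-likelihood, adjusted p = 0.534, 0.431, 0.123 and 0.140).

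**Figure D4:**
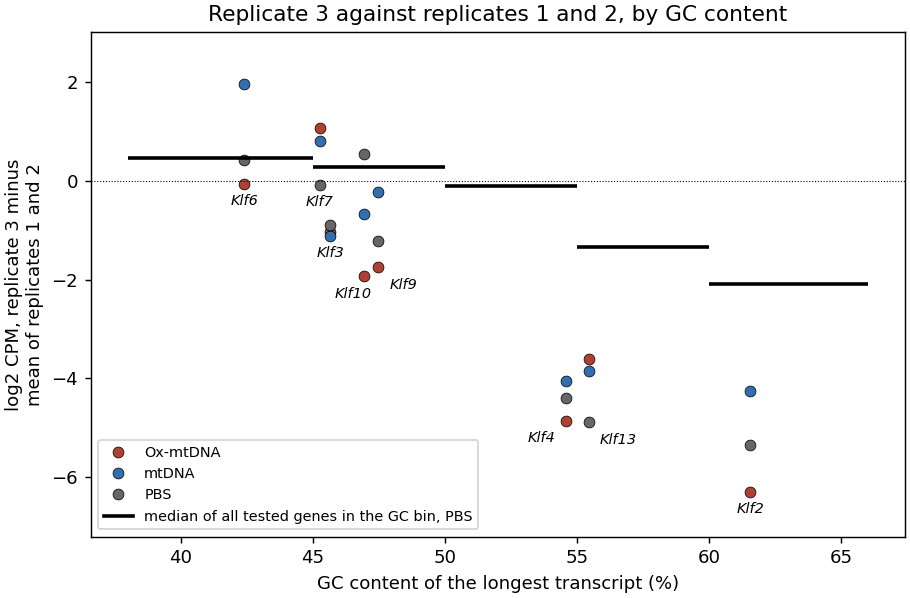
Difference in log2 CPM between replicate 3 and the mean of replicates 1 and 2 against the GC content (%) of the longest transcript, for each gene in Ox-mtDNA (red), mtDNA (blue) and PBS (grey), with black lines at the median of all tested genes in a GC bin in PBS (the outermost bins are drawn in part). Klf2, Klf4 and Klf13, of 54.6% to 61.6% GC, lie at -3.60 or below in all groups, under the lines of their bins.

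Levels per length gave the order of the members within a group. Klf6 had the highest mean in each, at 120.04 CPM per kb in Ox-mtDNA, 53.9 CPM per kb in mtDNA and 27.1 CPM per kb in PBS. This first rank rested on replicate 3 in mtDNA and PBS. In replicates 1 and 2 Klf13 was higher, at 39.9 and 46.3 CPM per kb in mtDNA and 41.3 and 35.8 CPM per kb in PBS, against 28.6 and 26.6 CPM per kb in mtDNA and 24.7 and 23.9 CPM per kb in PBS for Klf6. Klf2 was above Klf6 as well in PBS replicates 1 and 2 (35.4 and 39.4 CPM per kb) and in Ox-mtDNA replicate 1, at 202 against 174 CPM per kb. Klf9 had the lowest mean, at 1.42, 0.379 and 0.358 CPM per kb in Ox-mtDNA, mtDNA and PBS, and its libraries lay below all those of Klf7, the next in order, in each group. In Ox-mtDNA the order by mean was Klf6, Klf2, Klf13, Klf4, Klf10, Klf3, Klf7 and Klf9, and all neighbours except Klf7 and Klf9 overlapped. In mtDNA Klf13 and Klf2 followed Klf6, then Klf10, Klf4, Klf3 and Klf7, again with overlap between all neighbours above Klf9. In PBS Klf6, Klf13, Klf2, Klf4 and Klf10 overlapped with their neighbours, while Klf10, Klf3, Klf7 and Klf9 were separate from each other.

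Likeness was measured as the root-mean-square distance between the centred log2 CPM of 2 genes over the 9 libraries. By distance, Klf3 and Klf10 were the closest pair within the family, at 0.56, followed by Klf2 and Klf4 at 0.73. Klf2 and Klf6 were the farthest apart, at 3.03. Among 16749 other tested genes with a symbol, the nearest to Klf6 were Gm5129 (0.24) and Gpr21 (0.28), and to Klf9 Zfand5 (0.35) and Rnf225 (0.37). S1pr2, a sphingosine-1-phosphate receptor, was the nearest to Klf3 (0.15), followed by Sertad1 (0.21). Rcor2, a corepressor of the REST complex, was the nearest to Klf4 (0.23), followed by Phldb3 (0.32). Palm (0.63) and Plekhg5 (0.65) were nearest to Klf2, Gm8399 (0.13) and Ccdc130 (0.14) to Klf7, Tmem95 (0.30) and Gad1 (0.31) to Klf10 and Trim41 (0.20) and Tbc1d22b (0.22) to Klf13.

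Of the 9 other Kruppel-like factor genes, 5 were tested, and for Ox-mtDNA over PBS 2 were higher at an unadjusted p under 0.05 and 0 lower (5.88% and 3.93% of all tested genes). Klf11, a Sin3A-binding relative of Klf10, was at 67.0, 52.4 and 51.8 CPM in Ox-mtDNA, 21.6, 24.7 and 46.3 CPM in mtDNA and 23.5, 19.1 and 19.9 CPM in PBS. Its Ox-mtDNA libraries lay close together and above all others, with a log2 fold change of 1.45 (SE 0.34) over PBS and 0.89 (SE 0.34) over mtDNA (edgeR quasi-likelihood, adjusted p = 0.472 and 0.99995). Klf5 was the other, at 4.996, 3.12 and 2.06 CPM in Ox-mtDNA and 1.26, 0.309 and 1.44 CPM in PBS, a log2 fold change of 1.74 (SE 0.73). Klf12, a CtBP-recruiting relative of Klf3, had a log2 fold change of -0.97 (SE 0.66). Klf11 alone passed an unadjusted p of 0.05 for Ox-mtDNA over mtDNA, where 0.923% of all tested genes were higher and 1.48% lower. For mtDNA over PBS 0 of the 5 did, where 2.02% of all tested genes were higher and 0.598% lower. Of 9 Sp factor genes, which share the zinc finger type, 5 were tested. Of these, 0 had an unadjusted p under 0.05 in any comparison, beside the same shares of all tested genes. Sp1 was at -0.15 (SE 0.24) and Sp3 at -0.16 (SE 0.23) on the log2 scale for Ox-mtDNA over PBS.

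The partners and upstream regulators of the family gave 0 genes at an unadjusted p under 0.05 in any comparison. Of all tested genes, 5.88% were higher and 3.93% lower for Ox-mtDNA over PBS. The shares were 2.02% and 0.598% for mtDNA over PBS, and 0.923% and 1.48% for Ox-mtDNA over mtDNA. Lists this short would hold few or none at such shares. The partners were 12 coregulators. Among these the corepressor genes Sin3a and Ctbp2 were at -0.30 (SE 0.21) and 0.43 (SE 0.36) on the log2 scale for Ox-mtDNA over PBS. The regulators were 9 genes of the ERK5 kinase cascade, the MEF2 factors and the FOXO factors, which regulate Klf2 in lymphocytes and endothelium. Of these 9, 6 were positive and 3 negative for Ox-mtDNA over PBS, with a median of 0.09. Mef2c was at -0.47 (SE 0.44), Map2k5, the kinase that activates ERK5, at -0.27 (SE 0.38) and Foxo1 at 0.46 (SE 1.07) on the same scale. Mef2d was at 394, 369 and 8.05 CPM in Ox-mtDNA, 238, 218 and 6.04 CPM in mtDNA and 248, 225 and 3.64 CPM in PBS. Within each replicate number its Ox-mtDNA library was the highest. Mef2d was picked for this order, and the share of all genes with the same order was not counted. Its groups overlapped, and it was not among the 3 genes of its list with the smallest p in any comparison.

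Of 9 trafficking genes linked to KLF2, 8 were tested, and 1 was higher and 1 lower at an unadjusted p under 0.05 for Ox-mtDNA over PBS, where 5.88% of all tested genes were higher and 3.93% lower. Cd69, an early activation antigen that retains lymphocytes by pulling S1pr1 off the surface, was at 231, 96.9 and 414 CPM in Ox-mtDNA, 50.02, 40.6 and 419 CPM in mtDNA and 31.0, 24.6 and 26.3 CPM in PBS. Both DNA groups lay above all PBS libraries, with log2 fold changes of 3.18 (SE 0.98) for Ox-mtDNA and 2.64 (SE 0.96) for mtDNA (edgeR quasi-likelihood, adjusted p = 0.472 and 0.99997). Ccr9, a chemokine receptor that is also on the list of pDC markers, was at 479, 336 and 544 CPM in Ox-mtDNA and 621, 1272 and 1345 CPM in PBS, a log2 fold change of -1.25 (SE 0.42, edgeR quasi-likelihood, adjusted p = 0.472). In mtDNA over PBS Cd69 alone passed an unadjusted p of 0.05, where 2.02% of all tested genes were higher and 0.598% lower. In Ox-mtDNA over mtDNA 0 of the 8 did, where 0.923% of all tested genes were higher and 1.48% lower. There S1pr1, a receptor for exit from lymphoid tissue and a target of KLF2 in T cells, was at 0.68 (SE 0.72).

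Of 10 reported targets in cell cycle, TGF-beta and chemokine control, 1 was higher and 0 lower at an unadjusted p under 0.05 for Ox-mtDNA over PBS (5.88% and 3.93% of all tested genes). The other comparisons gave 0, beside 2.02% higher and 0.598% lower of all tested genes for mtDNA over PBS. For Ox-mtDNA over mtDNA these shares were 0.923% and 1.48%. Myc, a growth regulator, was at 35.4, 37.8 and 9.80 CPM in Ox-mtDNA, 11.2, 6.998 and 11.2 CPM in mtDNA and 9.21, 7.84 and 1.37 CPM in PBS. Each Ox-mtDNA library lay above all PBS libraries, as in 7.39% of tested genes, with a log2 fold change of 2.17 (SE 0.75, edgeR quasi-likelihood, adjusted p = 0.472). For Ccl5, the chemokine gene that KLF13 activates in T cells, mtDNA over PBS gave 1.13 (SE 1.19) and Ox-mtDNA over mtDNA -1.71 (SE 1.21) on the log2 scale.

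Immediate-early genes, which are transcribed first after stimulation or handling of cells, were the list with the highest values. For Ox-mtDNA over PBS 14 of 15 had a positive log2 fold change, with a median of 2.67, and 10 were higher at an unadjusted p under 0.05 and 0 lower, again beside 5.88% and 3.93% of all tested genes. For mtDNA over PBS the median was 0.97 with 3 higher (2.02% of all tested genes), and for Ox-mtDNA over mtDNA it was 1.82 with 4 higher (0.923%). Dusp1, which encodes a MAP kinase phosphatase, was at 272, 128 and 118 CPM in Ox-mtDNA, 13.5, 11.4 and 90.5 CPM in mtDNA and 7.02, 5.05 and 2.01 CPM in PBS. As for Klf6, replicate 3 was the 1 mtDNA library close to the Ox-mtDNA range. Jun, a subunit of the AP-1 factor, was at 6725, 492 and 47.1 CPM in Ox-mtDNA, 51.6, 37.0 and 23.5 CPM in mtDNA and 29.3, 26.8 and 0.494 CPM in PBS. Ox-mtDNA replicate 1 was the highest library for Jun, as for Dusp1, Klf2, Klf4 and Klf6. The part of handling in these values was not tested.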

How the data were processed

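Polyadenylated RNA of 9 libraries of sorted mouse pDCs (3 groups of 3) was sequenced. The authors deposited raw counts per gene, without normalization. Per the submitters' processing notes, fastp 0.23.4, STAR 2.7.11b, featureCounts 2.0.1 and the build GRCm39 were used. Per the file headers, featureCounts used GENCODE M34 exons without strand, counted a fragment for every gene it overlapped and left out multi-mapping fragments. Exons of Klf7 shared 4 bases with Gm13748 (at most 72 counts, against at least 333 for Klf7), and those of the other members shared none.

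Samples were grouped by title. In R 4.3.3, edgeR 4.0.16 (TMM, filterByExpr at a minimum count of 10, robust quasi-likelihood F-test) was fitted to all 9 libraries with a coefficient per group. This fit had no replicate block, so an offset of replicate 3 that the groups share counts as spread in its SEs, intervals and p-values. Adjustment was by Benjamini-Hochberg over 17555 genes at a threshold of 0.05. CPM used TMM-scaled library sizes, and 0.5 CPM was added before log2, which shrinks differences between low values. CPM per kb used the exon length in the table. The code was tested on simulated data. Replicates differed by 17.0 to 398 times counting variance (chi-square per degree of freedom, over many genes at once), so their spread exceeded counting noise across genes as a whole. This was not measured apart for genes of low count such as Klf9. Deviations from group means of the 9 same-numbered library pairs correlated at 0.498 to 0.905. Pairs of a replicate 1 and a replicate 2 library from different groups correlated at 0.548 to 0.739. Pairs of a replicate 3 library with either correlated at -0.886 to -0.559. Deviations cancel out within a group, so an outlying replicate 3 makes replicates 1 and 2 correlate across groups whatever the pairing. Between PBS and mtDNA, pairs of the same number (1 or 2) correlated at 0.808 and 0.804, and the crossed pairs at 0.707 and 0.739. Between Ox-mtDNA and the other groups these ranges were 0.498 to 0.655 and 0.548 to 0.664. The values set replicate 3 apart, but they cannot decide whether the numbers pair replicates 1 and 2. The labels do not say whether they do, and the replicate block was fitted as an alternative only.

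The members, 7 pathway lists and 9 marker lists were chosen with earlier results of these data known, and 2 markers are not reported here and were left out of their lists. Named genes were all members, up to 3 genes per list and comparison with the smallest p, and the 2 genes nearest to each member, with Jun's and Klf11's values given across all groups. Mef2d was named outside this rule, for its values within replicate numbers. Alternatives were other normalizations and filters, DESeq2 1.42.0, limma 3.58.1 (voom), only the libraries compared, the replicate block, replicates 1 and 2 only, and each library left out. Figures were drawn with matplotlib 3.10.9.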

Additional observations from a re-analysis of the deposited data

How the results depend on the processing

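Of 456 values of the 24 member fold changes under 19 alternatives, 423 kept their direction and their side of the threshold, 32 reversed and 1 passed the threshold, and 10 of the 24 never reversed, Klf6 and Klf9 for Ox-mtDNA over PBS and over mtDNA among them. For genes called, the DESeq2 Wald test gave 370 for Ox-mtDNA over PBS (260 higher and 110 lower), 9 for mtDNA over PBS and 1 for Ox-mtDNA over mtDNA, and it called 1 member, Klf6, in the first. For Ox-mtDNA over PBS the replicate block gave 1 gene called and replicates 1 and 2 only gave 25, and no member was among them. By edgeR without the block 1722, 460 and 422 genes had an unadjusted p under 0.05 in the 3 comparisons, against 3345, 998 and 1195 with it. With the replicate block Klf6 was at 2.14 (edgeR adjusted p = 0.123) and Klf9 at 1.95 (edgeR adjusted p = 0.132) for Ox-mtDNA over PBS, and the block changed no member's call. Klf3 for Ox-mtDNA over PBS reversed to -0.30 (limma-voom), -0.012 (no filter), -0.21 (replicate block) and -0.087 (replicates 1 and 2 with the block), and Klf13 to 0.091 (limma-voom) and 0.029 (replicate block). Klf10 for Ox-mtDNA over mtDNA reversed to -0.17 (limma-voom). With replicates 1 and 2 only, without and with the block, Klf7 for Ox-mtDNA over mtDNA reversed to -0.033 and -0.030, and Klf9 for mtDNA over PBS to -0.217 and -0.218. With each library left out in turn, log2 fold changes of Ox-mtDNA over PBS ranged from -1.81 to 2.10 for Klf2, -0.50 to 1.58 for Klf4, -1.22 to 0.44 for Klf3, -0.72 to 0.92 for Klf10 and -0.89 to 0.19 for Klf13. Those of mtDNA over PBS ranged from -0.041 to 1.30 for Klf6, -0.32 to 0.56 for Klf9, -0.011 to 0.44 for Klf10 and -0.38 to 0.71 for Klf13. Those of Ox-mtDNA over mtDNA ranged from -1.01 to 2.92 for Klf2, -0.86 to 0.81 for Klf3, -0.42 to 0.48 for Klf7, -0.96 to 0.72 for Klf10 and -1.08 to 0.018 for Klf13. Where no library is named above or in the report, the cause of a reversal was not tested. Where 1 library of a group was left out, the remaining libraries of all groups shared 1 estimate of the spread.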
